A study of Rattus norvegicus with 23 samples.

Results

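Transforming growth factor beta (TGF-beta) is secreted as a latent complex in which the ligand is held by its own propeptide and tethered to the matrix by a latent TGF-beta binding protein. Once released, the ligand binds the type II receptor, which recruits and phosphorylates the type I receptor, while the type III receptor betaglycan presents ligand at the cell surface. The activated type I receptor phosphorylates Smad2 and Smad3, which enter the nucleus with Smad4, whereas the inhibitory Smad7 and the corepressor SnoN, the product of Skil, hold the pathway back. In the kidney the pathway is best known for driving matrix production and fibrosis.

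The genes described here are the 3 ligands Tgfb1, Tgfb2 and Tgfb3, the receptors Tgfbr1, Tgfbr2 and Tgfbr3, the latent binding protein Ltbp1, the receptor-activated Smad3, the inhibitory Smad7 and Skil. They were taken from the deposited rat count table by gene symbol, giving 10 genes of 30452, and 10 of these 10 were among the 14777 genes that passed the filter on low counts. They were measured in NRK-52E cells, a line of normal rat kidney epithelial cells, and in NRK-49F cells, a line of normal rat kidney fibroblasts. Both lines were kept in serum-free medium for 24 h and then held for 48 h at pH 7.4 or at pH 6.0, the latter set with HCl, with no genetic change in any group. The sequenced libraries were 6 samples of NRK-52E cells at each pH, 6 of NRK-49F cells at pH 7.4 and 5 of NRK-49F cells at pH 6.0. Each line is a single established line, and nothing in the labels says that samples came from separate cultures, so that the p-values measure the spread between these samples, which may be technical. The paper speaks of biological samples but does not describe separate cultures. The labels also divide the samples into sample groups, with NRK-52E in sample groups 1 and 3 and NRK-49F in 4 and 6, without saying what these are. Each sample group holds both pH values but only 1 cell line. Levels are given as FPM, fragments per 1000000 counts of the TMM-scaled library. FPM does not correct for gene length, so that levels are compared between samples and not between genes. A gene was called regulated at a Benjamini-Hochberg adjusted p under 0.05 in edgeR's quasi-likelihood test over all tested genes.

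Total counts ranged from 16412564 to 34250535 per sample, and no pair of replicates agreed within sampling noise. The fibroblast label of NRK-49F cells was borne out by 12 of 16 fibroblast markers, higher there than in NRK-52E cells at pH 7.4, while 3 were lower. Of the 16, 14 were above 1 FPM in NRK-49F cells and 8 in NRK-52E cells at pH 7.4, and Thy1 reached at most 4 counts. The epithelial label of NRK-52E cells was not borne out by most epithelial markers. Of 14 markers in the table, 3 (Krt8, Krt7 and Spint1) were above 1 FPM at pH 7.4, Krt8 was higher in NRK-49F cells, Cdh1 reached at most 12 counts, Epcam at most 1, and Esrp1 was at 0. The fibroblast markers Col3a1 and Mfap5 were higher in NRK-52E cells. The summed FPM of the fibroblast markers ranged from 5747 to 9251 in NRK-52E cells at pH 7.4 and from 2436 to 3656 at pH 6.0, and in NRK-49F cells from 10811 to 13853 and from 7503 to 10036. Those of the epithelial markers ranged from 464 to 684 and from 210 to 277 in NRK-52E cells and from 670 to 1208 and from 442 to 700 in NRK-49F cells. Their part in the results was not tested. In bulk RNA, fewer cells of a kind and less RNA per cell cannot be told apart.

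Several libraries stood apart. The NRK-52E sample A021 at pH 7.4 held Pdgfra, Col1a2 and Prrx1, genes of NRK-49F cells, at 1.54%, 1.18% and 1.48% of their mean in NRK-49F cells at pH 7.4, and A022 and A033 held less of them. The share of counts on 76 ribosomal protein genes was 8.60% in the NRK-52E sample A035 against 5.88% to 6.62% in the other NRK-52E samples at pH 7.4. It was 10.2% in the NRK-49F sample A042 at pH 6.0 and 8.81% in A052 at pH 7.4. A035 was the lowest of its group in 8 of the 10 genes and A042 in 9 of the 10. For the 10 genes and the pathway genes named for their fold change, some calls of the pH comparisons depended on these libraries. Where they did, a value without 1 or a set of them is given.

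The promoters of the genes were read from RefSeq on the rat build GRCr8, as 250 bases before and 50 after the start of each gene, and 10 of 10 genes matched. They are shown for the ligands, with which the pathway begins, and for Ltbp1 and Skil, in which a motif was found. Motifs were searched on both strands as the CRE TGACGTCA, the binding site of the CREB and ATF family, the Smad box CAGAC, the Smad palindrome GTCTAGAC and the AP-1 site TGACTCA. Capitals mark the CRE.
Tgfb1 (chr1:90324062-90324361, plus strand): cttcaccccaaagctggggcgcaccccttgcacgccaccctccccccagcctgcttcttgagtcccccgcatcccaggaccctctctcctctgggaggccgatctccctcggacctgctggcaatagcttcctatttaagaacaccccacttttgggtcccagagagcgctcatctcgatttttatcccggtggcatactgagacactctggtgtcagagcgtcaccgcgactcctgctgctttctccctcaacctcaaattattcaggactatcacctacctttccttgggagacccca
Tgfb2 (chr13:100792636-100792935, minus strand): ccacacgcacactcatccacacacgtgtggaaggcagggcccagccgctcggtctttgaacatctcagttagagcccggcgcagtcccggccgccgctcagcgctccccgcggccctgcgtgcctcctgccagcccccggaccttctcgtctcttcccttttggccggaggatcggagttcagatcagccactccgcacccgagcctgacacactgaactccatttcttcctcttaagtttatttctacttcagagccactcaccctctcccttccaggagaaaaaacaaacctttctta
Tgfb3 (chr6:111456897-111457196, minus strand): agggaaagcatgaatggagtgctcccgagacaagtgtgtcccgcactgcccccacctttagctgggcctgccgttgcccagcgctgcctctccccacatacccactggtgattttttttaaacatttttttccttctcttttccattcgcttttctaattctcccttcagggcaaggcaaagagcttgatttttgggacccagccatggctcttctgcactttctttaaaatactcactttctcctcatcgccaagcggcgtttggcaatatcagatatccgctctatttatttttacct
Ltbp1 (chr6:26177252-26177551, minus strand): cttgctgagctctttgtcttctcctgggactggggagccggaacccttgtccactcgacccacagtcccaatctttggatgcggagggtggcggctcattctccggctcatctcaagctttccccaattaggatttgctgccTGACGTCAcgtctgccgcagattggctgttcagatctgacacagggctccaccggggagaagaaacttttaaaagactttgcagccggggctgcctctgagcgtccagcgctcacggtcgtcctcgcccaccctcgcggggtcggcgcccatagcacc
Skil (chr2:114203523-114203822, minus strand): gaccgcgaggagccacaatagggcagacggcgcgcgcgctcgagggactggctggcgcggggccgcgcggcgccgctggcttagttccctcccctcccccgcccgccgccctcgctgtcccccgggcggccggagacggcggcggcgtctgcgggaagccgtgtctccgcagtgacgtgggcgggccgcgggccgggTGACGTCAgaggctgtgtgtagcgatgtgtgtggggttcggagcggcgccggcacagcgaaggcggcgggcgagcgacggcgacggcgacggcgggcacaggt

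The CRE began at position -108 of Ltbp1 and -53 of Skil, counted from the gene start at 0, and 1.83% of 33469 rat promoters of this length hold it. The Smad box was matched in the same promoters, at -99 in Ltbp1 and at -227 and -104 in Skil, and 50.1% of all promoters hold it. The palindrome (0.197% of promoters) and the AP-1 site (4.63%) matched none of the 10 genes. No match overlapped another. A match is a description of letters and not of binding, and a missing match says only that these letters are not in this window. The promoters differed in composition, with 47.7% G and C and 9 CpG in Tgfb3 and 77.3% and 51 CpG in Skil, beside a median of 51.7% and 7 CpG over all promoters. Of the 2 genes that share the CRE, Ltbp1 was called lower at pH 6.0 in both lines and Skil was called in neither. The call of Ltbp1 in NRK-49F cells was lost without A042, and 6 of 36 alternatives called Skil higher in NRK-52E cells.

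The question was how the genes of this pathway respond to acidic medium in each cell type. In NRK-52E cells 6 of the 10 genes were lower at pH 6.0 (Tgfb1, Tgfb2, Tgfb3, Tgfbr2, Ltbp1 and Smad7) and 0 were higher, while 61.2% of all tested genes were regulated, 36.6% lower and 24.7% higher. In NRK-49F cells 5 of the 10 were lower (Tgfb2, Tgfb3, Tgfbr2, Ltbp1 and Smad7) and 0 were higher, while 28.9% of all tested genes were regulated, 14.4% lower and 14.5% higher. Without A042 the count in NRK-49F cells was 3 (Ltbp1 and Smad7 were not called). The share of all tested genes without A042 is not given here. The regulated share of the 10 genes in NRK-52E cells was thus near that of all genes. The median log2 fold change of the 10 genes was -0.61 in NRK-52E cells, beside -0.12 over all tested genes, and -0.56 in NRK-49F cells, beside 0.00. Called lower in both lines were 5 genes, beside 9.39% of all tested genes. The FPM ranges of both pH values did not overlap for 4 genes in NRK-52E cells (38.6% of all tested genes) and for 5 in NRK-49F cells (20.6%).

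**Figure D1:**
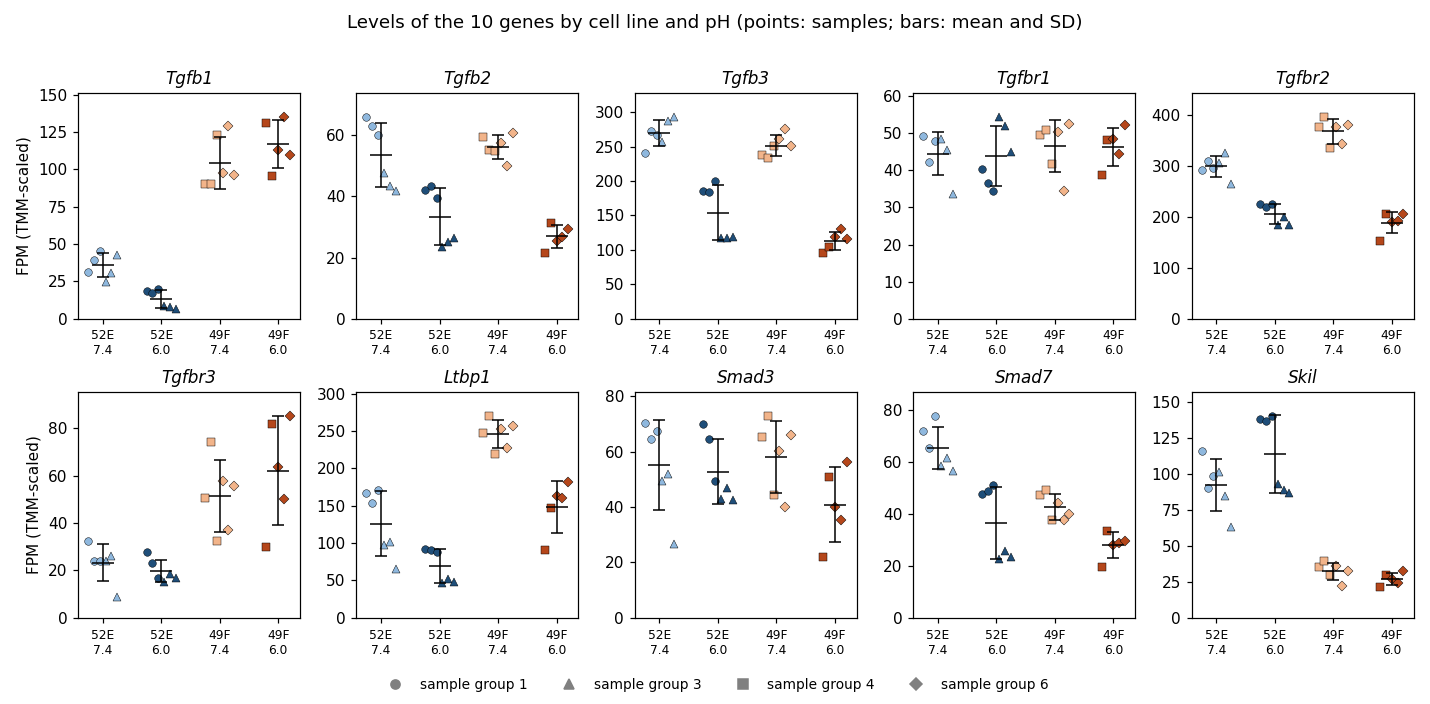
Level of each of the 10 genes in FPM (linear axis from 0), for NRK-52E (52E) and NRK-49F (49F) cells at pH 7.4 and 6.0, with 1 point per sample shaped by sample group and bars for mean and SD (n = 6, 6, 6 and 5). Tgfb3 and Tgfbr2 fell without overlap in both lines, and Tgfb1 fell in NRK-52E cells from between 24.8 and 45.6 FPM to between 6.81 and 19.8 FPM but spanned 90.2 to 135 FPM over both pH values in NRK-49F cells.

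Among the ligands, Tgfb1, the isoform most studied in fibrosis, differed most between the cell lines. In NRK-52E cells at pH 7.4 its level was 31.4, 39.3 and 45.6 FPM in sample group 1 and 24.8, 30.7 and 42.7 FPM in sample group 3. At pH 6.0 it was 18.9, 17.5 and 19.8 FPM in sample group 1 and 8.28, 7.56 and 6.81 FPM in sample group 3. Each sample at pH 6.0 was below each at pH 7.4, and the 3 samples of sample group 3 were the lowest. The mean fell from 35.7 ± 8.04 FPM (SD, n = 6) to 13.1 ± 6.19 FPM (SD, n = 6), which was 2.70-fold lower (log2 fold change -1.43, SE 0.23, adjusted p = 8.49e-06 in edgeR's quasi-likelihood test).

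In NRK-49F cells Tgfb1 stood at 90.2, 90.3, 123, 97.3, 129 and 96.0 FPM at pH 7.4. At pH 6.0 the values were 131, 95.5, 113, 135 and 110 FPM. The ranges overlapped almost entirely, and the log2 fold change was 0.16 (SE 0.23, adjusted p = 0.632 in edgeR's test). The difference between both changes was itself called (log2 difference -1.60, SE 0.32, adjusted p = 0.000301 in edgeR's test). Tgfb1 was 2.92-fold lower in NRK-52E than in NRK-49F cells at pH 7.4 and 8.85-fold lower at pH 6.0. The order of its levels was therefore NRK-49F cells at either pH, whose values did not differ beyond their spread, then NRK-52E cells at pH 7.4, then NRK-52E cells at pH 6.0.

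Tgfb2, a ligand known for its high need of betaglycan, fell in both lines. NRK-52E samples held 65.9, 62.9 and 60.02 FPM of it in sample group 1 and 47.5, 43.5 and 41.7 FPM in sample group 3 when kept at pH 7.4. At pH 6.0 it stood at 42.2, 43.5 and 39.4 FPM and at 23.3, 25.2 and 26.5 FPM. Within each sample group the pH values did not overlap, but sample group 1 at pH 6.0 reached the range of sample group 3 at pH 7.4. The group means were 53.6 ± 10.6 and 33.4 ± 9.30 FPM (SD, n = 6 for both), and the log2 fold change was -0.68 (SE 0.15, adjusted p = 0.000406 in edgeR's test).

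In NRK-49F cells Tgfb2 lay between 49.9 and 60.9 FPM at pH 7.4 (median 56.3). It stood at 21.6, 31.5, 25.3, 26.8 and 29.4 FPM at pH 6.0. The ranges were far apart, and the fall was 2.09-fold (log2 fold change -1.06, SE 0.16, adjusted p = 2.03e-05 in edgeR's test). The lines did not differ beyond their spread at pH 7.4, at 53.6 ± 10.6 FPM (SD, n = 6) and 56.3 ± 3.91 FPM (SD, n = 6), and the difference between both changes, 0.38 on the log2 scale (SE 0.22, adjusted p = 0.173), was not called, while with the sample group as a block it was (0.36, adjusted p = 0.0188 in edgeR's test).

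Tgfb3 had similar levels in both lines at pH 7.4 and fell in both. NRK-52E samples lay between 241 and 293 FPM at pH 7.4 (median 269.9). At pH 6.0 it stood at 186, 183 and 200.4 FPM in sample group 1 and at 117, 118 and 119 FPM in sample group 3. The 2 sample groups were thus clearly apart at pH 6.0, while at pH 7.4 their ranges overlapped. The means were 269 ± 19.2 and 154 ± 39.9 FPM (SD, n = 6 for both), and the log2 fold change was -0.81 (SE 0.12, adjusted p = 4.66e-06 in edgeR's test).

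In NRK-49F cells Tgfb3 ranged from 233 to 276 FPM at pH 7.4 (median 250.5) and stood at 95.0, 104.6, 119, 131 and 115 FPM at pH 6.0. This was 2.23-fold lower (log2 fold change -1.16, SE 0.13, adjusted p = 4.20e-07 in edgeR's test). At pH 6.0 Tgfb3 was higher in NRK-52E than in NRK-49F cells (log2 difference 0.45, SE 0.13, adjusted p = 0.00330 in edgeR's test), although the difference between both changes was not called (0.35, SE 0.18, adjusted p = 0.121).

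Ltbp1, which binds latent TGF-beta and fixes it to the matrix, fell in both lines. Sample group 1 of NRK-52E cells held 167, 153 and 171 FPM at pH 7.4, and sample group 3 held 97.02, 101 and 65.7 FPM. At pH 6.0 it stood at 92.4, 90.4 and 88.5 FPM and at 47.3, 52.6 and 47.8 FPM. Both sample groups fell without overlap of their own, with log2 fold changes of -0.86 and -0.84, but sample group 1 was higher than sample group 3 at each pH. Over all samples the log2 fold change was -0.85 (SE 0.22, adjusted p = 0.00165 in edgeR's test).

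In NRK-49F cells Ltbp1 ranged from 219.5 to 269.9 FPM at pH 7.4 and stood at 91.0, 147, 163, 160 and 182 FPM at pH 6.0. No sample at pH 6.0 reached the range of pH 7.4, and the lowest was A042. The log2 fold change was -0.72 (SE 0.23, adjusted p = 0.0191 in edgeR's test), and without A042 it was -0.59 (adjusted p = 0.0630), which was not called. Ltbp1 was lower in NRK-52E than in NRK-49F cells at pH 7.4 (log2 difference -0.96, SE 0.22) and at pH 6.0 (-1.09, SE 0.23).

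Of the 3 receptors, only Tgfbr2, the ligand-binding type II receptor, was called for a change with pH, in either line or within any sample group. The NRK-52E values were 292, 309, 296, 304, 325 and 264 FPM at pH 7.4 and 224, 219.8, 224, 184, 199 and 184 FPM at pH 6.0. The NRK-49F values were 375, 395, 334, 376, 343 and 379 FPM at pH 7.4 and 153, 205, 189, 191 and 205 FPM at pH 6.0. The pH values did not overlap in either line. The log2 fold change was -0.54 in NRK-52E cells (SE 0.08, adjusted p = 3.16e-06) and -0.96 in NRK-49F cells (SE 0.08, adjusted p = 7.69e-09), both in edgeR's quasi-likelihood test.

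The fall of Tgfbr2 was larger in NRK-49F cells (difference 0.43, SE 0.11, adjusted p = 0.00457 in edgeR's test). It was lower in NRK-52E than in NRK-49F cells at pH 7.4 (log2 difference -0.30, SE 0.08, adjusted p = 0.00183), while at pH 6.0 the lines did not differ beyond their spread (0.13, SE 0.08, adjusted p = 0.170).

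Tgfbr1, the type I receptor kinase, lay between 33.7 and 54.3 FPM in all 23 samples. The means in the 4 groups were, for NRK-52E at pH 7.4 and 6.0, 44.5 ± 5.87 and 43.8 ± 8.10 FPM (SD, n = 6 for both), and for NRK-49F 46.5 ± 7.05 FPM (SD, n = 6) and 46.4 ± 5.09 FPM (SD, n = 5). No contrast between the 4 groups was called for it, with log2 fold changes of -0.02 (SE 0.12) and 0.00 (SE 0.13). In NRK-52E cells it was -0.32 (SE 0.15) in sample group 1 and 0.24 (SE 0.15) in sample group 3, neither called. The difference between these, 0.57 (SE 0.22, adjusted p = 0.106 in edgeR's test), was not called but was in 2 of 33 alternatives.

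Tgfbr3, which encodes betaglycan, was lower in NRK-52E than in NRK-49F cells at both pH values (log2 difference -1.14, SE 0.26, at pH 7.4 and -1.65, SE 0.27, at pH 6.0). Its NRK-52E values were 32.4, 24.0, 24.1, 24.2, 26.2 and 8.66 FPM at pH 7.4, and they ranged from 15.3 to 27.7 FPM at pH 6.0. The value of 8.66 FPM belongs to A035. In NRK-49F cells it ranged from 32.4 to 74.4 FPM at pH 7.4 and from 29.8 to 85.1 FPM at pH 6.0. The change was not called in either line (log2 fold change -0.24, SE 0.26, and 0.27, SE 0.27). It was -0.41 (adjusted p = 0.123) in NRK-52E cells without A035 and -0.12 (adjusted p = 0.725) without A021, and 0.45 (adjusted p = 0.217) in NRK-49F cells without A042, all in edgeR's test.

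Smad3, the signal-carrying Smad, was not called in either line. Its NRK-52E values were 70.5, 64.7, 67.4, 49.6, 51.9 and 26.7 FPM at pH 7.4 and 70.0, 64.7, 49.5, 42.96, 46.9 and 42.6 FPM at pH 6.0, with a log2 fold change of -0.07 (SE 0.22). Its NRK-49F values were 65.2, 72.8, 44.4, 60.4, 39.9 and 66.2 FPM at pH 7.4 and 21.9, 51.04, 39.98, 35.3 and 56.2 FPM at pH 6.0, with a log2 fold change of -0.51 (SE 0.23, adjusted p = 0.104 in edgeR's test). In 3 of the 4 groups the lowest Smad3 value, 26.7, 39.9 and 21.9 FPM, belonged to the sample with the highest ribosomal protein share, A035, A052 and A042. In NRK-52E cells at pH 6.0 it did not, since A026, with the highest share of 7.53%, held 49.5 FPM. Leaving out A035 gave a log2 fold change of -0.21 in NRK-52E cells (adjusted p = 0.376 in edgeR's test).

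**Figure D2:**
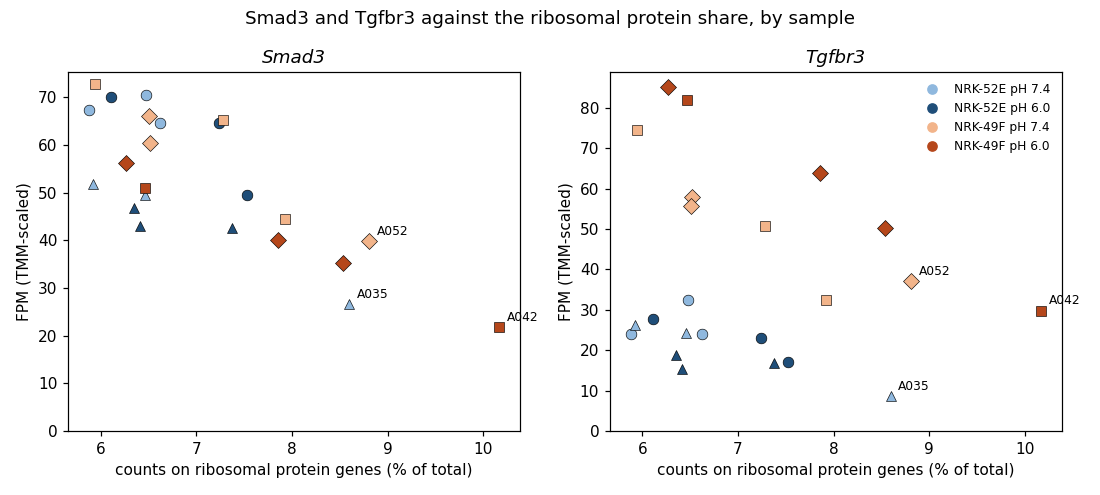
Levels of Smad3 (left) and Tgfbr3 (right) in FPM (axis from 0) against the percentage of all counts on ribosomal protein genes (axis not from 0), 1 point per sample, coloured by cell line and pH and shaped by sample group. A035 (8.60%), A052 (8.81%) and A042 (10.2%) lie to the right, and Smad3 is 26.7, 39.9 and 21.9 FPM in them, the lowest value of each of their groups.

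Smad7, an inhibitory Smad that TGF-beta itself induces, fell in both lines. In NRK-52E cells it stood at 71.8, 65.5, 77.6, 58.5, 61.4 and 56.6 FPM at pH 7.4. At pH 6.0 it stood at 47.6, 48.9 and 51.03 FPM in sample group 1 and at 22.8, 25.7 and 23.5 FPM in sample group 3. All values at pH 6.0 were below all values at pH 7.4 (log2 fold change -0.83, SE 0.18, adjusted p = 0.000361 in edgeR's test).

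In NRK-49F cells Smad7 ranged from 37.5 to 49.2 FPM at pH 7.4 and stood at 19.6, 33.3, 28.1, 28.9 and 29.7 FPM at pH 6.0. The log2 fold change was -0.61 (SE 0.19, adjusted p = 0.0186 in edgeR's test), and it was -0.51 (adjusted p = 0.0622) without A042, the lowest sample, which was not called. Smad7 was higher in NRK-52E than in NRK-49F cells at pH 7.4 (log2 difference 0.61, SE 0.18, adjusted p = 0.00453 in edgeR's test), and at pH 6.0 the difference of 0.39 (SE 0.19, adjusted p = 0.0679) was not called. The difference at pH 6.0 was called in 6 of 32 alternatives, among them DESeq2 (0.42, adjusted p = 0.0437).

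Skil, the SnoN corepressor, was higher in NRK-52E than in NRK-49F cells. Its NRK-52E values were 116, 90.1, 98.4, 101, 85.03 and 63.5 FPM at pH 7.4 and 138, 137, 140.2, 92.8, 89.1 and 86.6 FPM at pH 6.0. In the fibroblasts it ranged from 22.4 to 39.2 FPM at pH 7.4 and from 21.7 to 32.3 FPM at pH 6.0. It was thus 2.84-fold higher in NRK-52E cells at pH 7.4 and 4.23-fold higher at pH 6.0. The change with pH was not called in either line (log2 fold change 0.30, SE 0.16, and -0.27, SE 0.17), but 6 of 36 alternatives called Skil higher in NRK-52E cells, among them the fit without A021 (0.38, adjusted p = 0.0469 in edgeR's test), that without A042 and A052 (0.41, adjusted p = 0.0147) and that of each cell line alone (0.39, adjusted p = 0.0456). The difference between both changes was called (0.57, SE 0.23, adjusted p = 0.0481 in edgeR's test). That call was lost in 17 of 33 alternatives, and without A035 the difference was 0.48 (adjusted p = 0.0775).

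**Figure D3:**
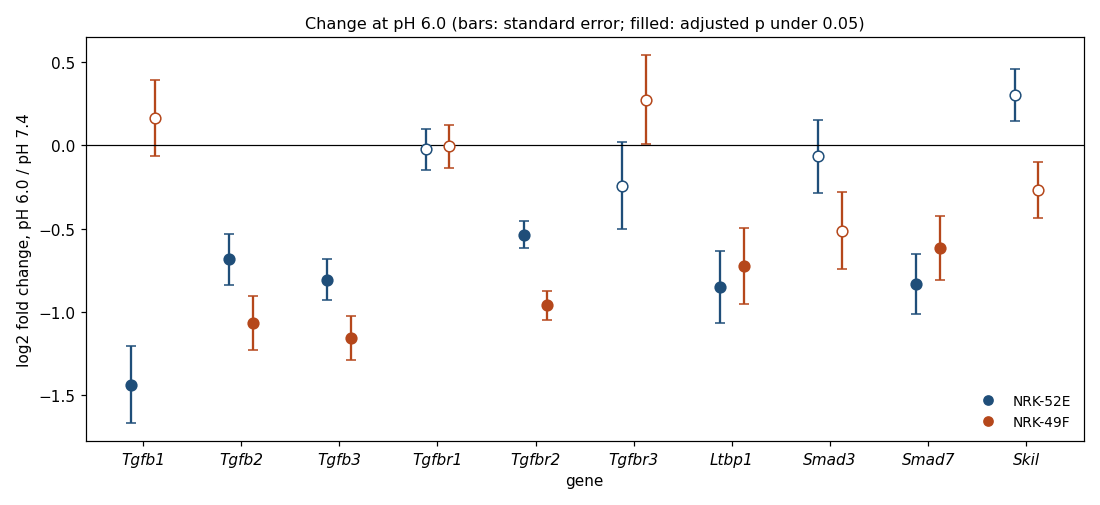
Log2 fold change from pH 7.4 to pH 6.0 of each gene in NRK-52E (blue) and NRK-49F (orange) cells, with standard errors as bars and filled points for adjusted p under 0.05 in edgeR's quasi-likelihood test. Filled are 6 genes in NRK-52E and 5 in NRK-49F cells, all below 0, and Tgfb1 shows the widest gap between the lines (-1.43 against 0.16).

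Across the lines, 3 of the 10 genes (Tgfb1, Tgfbr2 and Skil) changed differently in edgeR's test of the difference, beside 41.4% of all tested genes, and with the sample group as a block 4 did, Tgfb2 being added. The lines differed at pH 7.4 in 6 genes, beside 68.8% of all tested genes, and at pH 6.0 in 5, beside 75.5%. Of these, Tgfb1, Tgfbr3 and Ltbp1 were lower and Skil higher in NRK-52E cells at both pH values. Since no sample group holds both lines, line and sample group cannot be told apart in the comparisons between lines.

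The sample groups allowed the change to be read within each. In NRK-52E cells 6 genes were lower at pH 6.0 in sample group 1, beside 30.1% of all tested genes, and 6 in sample group 3, beside 33.6%. Skil was higher in sample group 1 (log2 fold change 0.45, adjusted p = 0.0398 in edgeR's test), as were 18.8% of all tested genes. In NRK-49F cells 5 genes were lower in sample group 4, beside 11% of all tested genes, and 5 in sample group 6, beside 10.9%. Ltbp1 and Smad7 were among them in each sample group, both contrasts being read from the same fit. At pH 6.0 sample group 4 holds only A042 and A043. The size of the fall differed between sample groups of NRK-52E cells for 3 genes, beside 10.6% of all tested genes. Tgfb1 had log2 fold changes of -1.04 in sample group 1 and -2.11 in sample group 3, a difference of -1.07 (SE 0.28, adjusted p = 0.0169 in edgeR's test). Tgfb3 had -0.45 and -1.24, a difference of -0.79 (SE 0.11, adjusted p = 0.000115). Smad7 had -0.54 and -1.29, a difference of -0.75 (SE 0.19, adjusted p = 0.0166). Without A021, A022 and A033 the difference was called for 1 gene, Tgfb3 (-0.80). Without A021 alone that of Tgfb1 was -0.94 (adjusted p = 0.0505), and without A035 alone it was -0.83 (adjusted p = 0.0523). Between the sample groups of NRK-49F cells 0 of the 10 genes differed, beside 0% of all tested genes in edgeR's test. At an unadjusted p under 0.05 there were 596 of the 14777 tested genes, 1 of the 10 among them (Ltbp1), and DESeq2 called 10 genes.

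**Figure D4:**
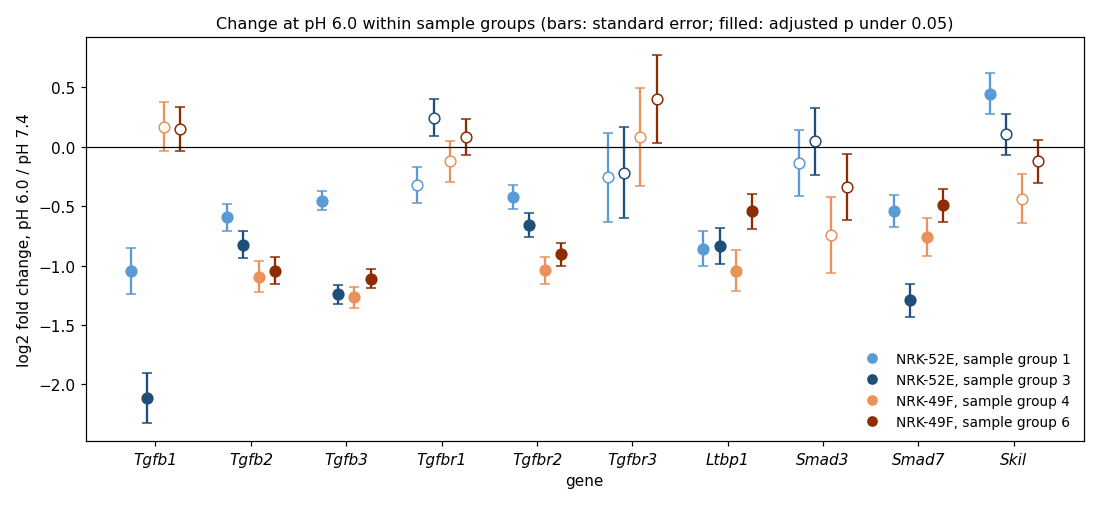
Log2 fold change from pH 7.4 to pH 6.0 of each gene within sample groups 1 and 3 (NRK-52E, blues) and 4 and 6 (NRK-49F, oranges), with standard errors as bars and filled points for adjusted p under 0.05 in edgeR's quasi-likelihood test. Tgfb1 reaches -1.04 and -2.11 in sample groups 1 and 3 against 0.17 and 0.15 in sample groups 4 and 6.

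The other genes of the pathway were read from 4 lists of 84 genes, 74 of which passed the filter. In NRK-52E cells 52 of the 74 were regulated, 43 lower and 9 higher, and in NRK-49F cells 31 were regulated, 22 lower and 9 higher, shares of 70.3% and 41.9%. Over all tested genes these shares were 61.2% and 28.9%. The median log2 fold changes of the lists were -0.57 and -0.22, beside -0.12 and 0.00 over all tested genes. The shares of all tested genes that stand behind the counts of each list were 36.6% (lower) and 24.7% (higher) for NRK-52E, and 14.4% (lower) and 14.5% (higher) for NRK-49F. Means in FPM are given with the SD over 6 samples, or over 5 for NRK-49F cells at pH 6.0, and log2 fold changes with their SE. Without A021, A022 and A033 the count in NRK-52E cells was 38, and the share of all tested genes in that setting is not given here.

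Of the genes of latency and activation, 12 of 17 were lower and 0 higher in NRK-52E cells, and 5 were lower and 2 higher in NRK-49F cells, so that 70.6% and 41.2% of them were regulated, beside 61.2% and 28.9% of all tested genes. Fmod, a matrix proteoglycan that binds TGF-beta, fell in both lines. Its NRK-52E means at the higher and the lower pH were 387 ± 83.5 and 24.7 ± 4.15 FPM. Its NRK-49F means were 4.82 ± 2.80 and 0.76 ± 0.31 FPM. Thbs1, thrombospondin-1, an activator of latent TGF-beta, fell in NRK-49F cells from a mean of 5536 ± 907 to 1671 ± 394 FPM (log2 fold change -1.73, SE 0.30). Furin, the convertase that cleaves the TGF-beta propeptide, rose in NRK-49F cells (0.58, SE 0.11). Mmp2, a gelatinase, rose there from 582 ± 41.7 to 1235 ± 75.5 FPM (1.09, SE 0.39), a call lost in 14 of 34 alternatives. Among these were the fits without A042 (1.09, adjusted p = 0.0542) and without A042 and A052 (1.11, adjusted p = 0.0636), both in edgeR's test. The call was also lost without any other single NRK-49F sample except A052, so the loss was not particular to A042. The log2 fold change stayed above 1 in all 34 alternatives. In NRK-52E cells Mmp2 was scarce, and its called fall rested on A021, A022 and A033, which held 215, 35 and 59 counts at pH 7.4, since without them the log2 fold change was -0.93 (adjusted p = 0.278 in edgeR's test).

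At the receptor level, 5 of 12 genes were lower and 1 higher in NRK-52E cells, and 1 was lower and 1 higher in NRK-49F cells. The regulated shares, 50% and 16.7%, were below the 61.2% and 28.9% of all tested genes. Cav1, caveolin-1, which takes part in receptor internalisation, fell in NRK-52E cells from 855 ± 93.2 to 341 ± 82.3 FPM (log2 fold change -1.32, SE 0.13), and Dab2, an endocytic adaptor, fell from 101 ± 18.1 to 50.6 ± 5.43 FPM (-0.99, SE 0.13). Eng, the co-receptor endoglin, was called higher in NRK-52E cells but was scarce there, where pH 7.4 samples held between 1 and 44 counts and pH 6.0 samples between 17 and 52, and its log2 fold change ran from 0.40 to 3.01 over the alternatives. Its level reached the minimum for named genes only through NRK-49F cells, where it stood at 131 ± 12.7 FPM at pH 6.0. The same was true of Mmp2 and the matrix gene Vcan, while Fmod reached this minimum only through NRK-52E cells. In NRK-49F cells the pseudoreceptor Bambi rose (0.61, SE 0.09) and the ubiquitin ligase Nedd4l fell (-0.32, SE 0.08). Bambi fell in NRK-52E cells (-0.34, SE 0.08).

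Of the Smads and their partners, 7 of 17 were lower and 4 higher in NRK-52E cells, and 6 were lower and 2 higher in NRK-49F cells. The regulated share in NRK-52E cells, 64.7%, was near the 61.2% of all tested genes, and that in NRK-49F cells was 47.1% beside 28.9%. Smad4, the common partner of the receptor-activated Smads, rose in NRK-52E cells from a mean of 82.2 ± 13.4 to 143 ± 29.5 FPM (0.80, SE 0.12) and stood at 77.9 ± 4.27 and 76.9 ± 6.76 FPM in NRK-49F cells. Smad6, an inhibitory Smad of the BMP branch, fell in NRK-49F cells from 58.5 ± 5.85 to 16.6 ± 1.34 FPM (-1.82, SE 0.16). Pmepa1, which TGF-beta induces and which holds it back, fell in both lines (-0.80, SE 0.18, and -1.34, SE 0.20). The corepressor Tgif2 fell in NRK-52E cells (-0.90, SE 0.20) and Zeb1, a repressor of epithelial genes, rose (0.44, SE 0.14), though it was not called within sample group 1 (0.105, adjusted p = 0.574 in edgeR's test). In NRK-49F cells Tgif1 (0.45, SE 0.06) and Smad1, which carries BMP signals (0.44, SE 0.10), rose.

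Of the genes known to respond to TGF-beta, 19 of 28 were lower and 4 higher in NRK-52E cells, and 10 were lower and 4 higher in NRK-49F cells. Regulated were thus 82.1% and 50%, beside 61.2% and 28.9% of all tested genes. Ccn2, connective tissue growth factor, fell from 2936 ± 647 to 1347 ± 604 FPM in NRK-52E cells and from 4315 ± 351 to 523 ± 57.2 FPM in the fibroblasts (log2 fold changes -1.12, SE 0.22, and -3.04, SE 0.25). Ccn1, its matricellular relative, fell in NRK-49F cells (-2.44, SE 0.19). Cdkn1a, the cell cycle inhibitor p21, had a mean of 17.4 ± 3.79 FPM in NRK-52E cells at pH 7.4 and rose to 369.7 ± 187 FPM (4.41, SE 0.27), and Snai1, a regulator of epithelial-mesenchymal transition, rose (1.00, SE 0.12). The crosslinking enzyme Tgm2 rose in NRK-49F cells (1.74, SE 0.26) and fell in NRK-52E cells (-1.23, SE 0.25), and Itga5, the fibronectin receptor subunit, rose in NRK-49F cells (0.55, SE 0.07). The calls of the matrix genes Vcan and Col1a2 in NRK-52E cells rested on the same 3 samples, which held 98, 19 and 34 counts of Vcan and 1889, 287 and 240 counts of Col1a2. Without them the log2 fold changes were -0.70 (adjusted p = 0.713) and -0.45 (adjusted p = 0.327) in edgeR's test. Fn1, Tgfbi, Col1a1 and Sphk1 were also called lower in NRK-52E cells. For each of them the SD at pH 7.4 was large beside the mean, and for Tgfbi and Sphk1 it was above the mean. Their calls without A021, A022 and A033 are not given here. How much of the 82.1% rests on these samples was not tested for this list.

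**Figure D5:**
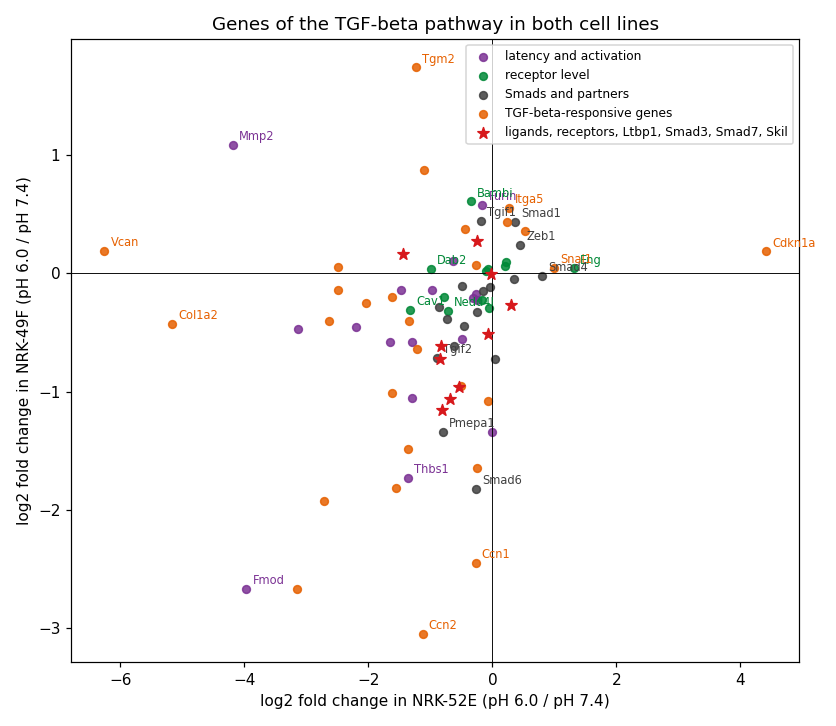
Log2 fold change from pH 7.4 to pH 6.0 in NRK-52E cells (horizontal) against NRK-49F cells (vertical) for the 74 tested genes of the 4 lists, coloured by list, and the 10 ligand, receptor and Smad genes as stars. Most points lie left of 0 in NRK-52E cells, where 43 genes were called lower and 9 higher, and the far-left points of Vcan, Col1a2 and Mmp2 rest on the counts of A021, A022 and A033.

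For each gene the tested gene with the most similar pattern was found by the root mean square difference of log2(FPM + 0.1), each gene centred on its own mean, over the 23 samples. For Tgfb1 this was Ssbp4 (0.191), for Tgfb2 Bcl2 (0.185), for Tgfb3 Cnn2 (0.158) and for Ltbp1 Nuak1 (0.217). For the receptors it was Uba6 for Tgfbr1 (0.0902), Myh9 for Tgfbr2 (0.148) and Sh3pxd2a for Tgfbr3 (0.243). For Smad3 it was Arid3a (0.172), for Smad7 Ddr1 (0.152) and for Skil Rhobtb3 (0.113). The samples share cell line, sample group and pH, so that these distances are descriptions over the same libraries.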

How the data were processed

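Poly(A) RNA of 23 samples of NRK-52E and NRK-49F cells was sequenced in read pairs. The authors mapped the reads with HISAT2 2.1.0 and counted them on exons of Ensembl genes with featureCounts, multi-mapping reads included, and the deposited values are these raw counts. The paper names the rat build rn7 and the submitters' processing notes rn6. The strand setting is not given in the sources used here. Of the per-sample columns, 13 matched no label and were not used.

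Counts were analysed in R 4.3.3 with edgeR 4.0.16 in a model of 4 groups (cell line and pH), and sample groups in a model of 8 conditions. Genes were kept by filterByExpr (minimum count 10, minimum total 15), and libraries were scaled by TMM. Tests were quasi-likelihood tests, called at an adjusted p under 0.05 (Benjamini-Hochberg over all tested genes). As standard error, the absolute log2 fold change over the square root of F was taken. FPM are edgeR's counts per 1000000 of the TMM-scaled library. Replicate codes are not shared between groups, so the comparisons are unpaired. The genes, lists and tests were chosen with earlier results of these data known.

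Of each pathway list, the text names per cell line the top 2 regulated genes in each direction by log2 fold change, at a mean of at least 5 FPM. Lists were written from general knowledge, and 1 listed item is not reported here. Alternatives changed the scaling, filter, test (DESeq2 1.42.0, or a log2 fold change of 1) and samples. Steps were tested on simulated data. Promoters came from RefSeq (GRCr8), and figures were drawn with matplotlib 3.10.9.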

Additional observations from a re-analysis of the deposited data

Results flagged for a closer look

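Tgfbr3 in the NRK-52E sample A035 at pH 7.4 was 8.66 FPM, far below the nearest sample of its group at 24.0 FPM, the only 1 of 40 groups of samples (10 genes in 4 groups) in which a sample stood this far from the others on the FPM scale, while chance alone gives about 1 in 20. On the log2 scale 3 groups did, adding Tgfbr2 in A042 (153 FPM) and Smad3 in A035 (26.7 FPM). A035 and A042 also held the highest ribosomal protein shares of their groups (8.60% and 10.2%), and the part of these shares in the values was not tested.

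The change at pH 6.0 differed between NRK-52E and NRK-49F cells for Tgfb1 (-1.60 on the log2 scale), Tgfbr2 (0.43) and Skil (0.57) in edgeR's test of the difference. For Skil this call was lost in 17 of 33 alternatives. The change also differed between sample groups 3 and 1 of NRK-52E cells for Tgfb1 (-1.07), Tgfb3 (-0.79) and Smad7 (-0.75), with the larger fall in sample group 3. Without A021, A022 and A033 the calls of Tgfb1 and Smad7 were lost, and that of Tgfb1 also without A021 or A035 alone. What the sample groups stand for is not given in the labels.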

How the results depend on the processing

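No called direction reversed in the alternatives run. The counts of regulated genes were the same or within 1.5 times under RLE and upper quartile scaling, both filters, DESeq2, each cell line alone and the sample group as a block. The block added Tgfb2 to the difference between the lines and changed no other call of the 10 genes. Each cell line alone moved the median of all genes in NRK-52E cells from -0.12 to 0.00. Testing for a change beyond a log2 fold change of 1 is stricter by construction. It left 0 of the 10 genes in the epithelial line, 0 in the fibroblast line and 0 for the difference between lines. It left 0 between sample groups of NRK-52E cells, 2 between the lines at pH 7.4 and 3 at pH 6.0. Of the 74 tested pathway genes it left 17 in NRK-52E and 8 in NRK-49F cells. Of all 14777 tested genes it left 1978 in NRK-52E and 294 in NRK-49F cells. With 1 sample left out at a time the counts ranged from 6 to 7 in NRK-52E cells, 3 to 5 in NRK-49F cells, 2 to 3 for the difference, 6 to 6 between lines at pH 7.4, 5 to 7 at pH 6.0, 2 to 3 between sample groups of NRK-52E cells, 0 to 0 in NRK-49F cells, and 46 to 57 and 28 to 34 pathway genes. The shares of all tested genes with samples left out are not given here. In settings chosen after the data were seen, the count in NRK-49F cells was 3 without A042 and A052 and 3 without A021, A022, A033, A042 and A052, and the count between sample groups of NRK-52E cells was 1 without A021, A022 and A033. The cause was not tested. No paired analysis was possible because the replicate codes are not shared between groups.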
